A study of Mus musculus with 6 samples.

Results

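The cell cycle and mitosis genes are a named list of 45 transcripts that encode the machinery of DNA replication, S phase, mitosis and cytokinesis. They were chosen by name, with earlier results of these data known, so the shares below describe the list and are not independent support. Of the 45, 44 were measured among the 18193 genes of the array. Ccnb1 is not analysed here. RNA came from whole kidneys of ERRa KO male mice, which lack the orphan nuclear receptor ERRα (gene Esrra), and of WT males, with 3 biological replicates per genotype, 1 array each. All animals were 2 to 3 months old and were kept on a standard diet in a 12 h light and dark cycle, and left and right kidneys of an animal were ground together. The labels give no strain, littermate status or removed exon, no exact age per animal, and do not say in words that every replicate is another mouse, so the p-values measure only the spread between these samples. Values are log2 signals per probe set, and every difference below is ERRa KO minus WT on that log2 scale.

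A dividing cell passes from G1, where D and E cyclins with their kinases release E2F factors from the retinoblastoma proteins, into S phase, where MCM helicases unwind origins and ribonucleotide reductase supplies the deoxynucleotides. In G2 and mitosis, CDK1 with A and B cyclins drives condensation and spindle assembly, the checkpoint proteins BUB1, BUBR1 and MAD2 hold anaphase until kinetochores are attached, and the anaphase-promoting complex with CDC20 and UBE2C then degrades cyclin B. Transcripts of the G2 and M genes are kept low in resting cells by the DREAM complex and are raised by MYBL2 and FOXM1, through a promoter element called CHR. CCAAT boxes are a separate element of G2 and M promoters. Cell division is rare in the adult kidney, and in ground tissue fewer cycling cells and less RNA per cycling cell cannot be told apart.

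Esrra, the targeted gene, read 6.66, 6.51 and 6.41 in the 3 ERRa KO kidneys, against 9.43, 9.43 and 9.52 in the 3 WT kidneys (difference -2.93, SE 0.08, limma adjusted p = 9.85e-06). Genotypes are those of the samples in the series table. The authors' deposited table carries the same values under exchanged genotype heads, for 45101 of 45101 probe sets, although its fold change column follows the series table, and under those heads every sign below would turn. In ERRa KO replicate 3 the liver marker list stood apart, with 12 of its 13 genes at their highest of all 6 arrays. Counts of the cell cycle list, and those of some other lists that moved, are therefore also given without that array.

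Most of the 44 genes read lower in ERRa KO kidneys. The difference was negative for 40 genes and positive for 4, with a median of -0.25, against a median of 0.01 and shares of 47.4% negative and 52.6% positive over all 18193 genes. Top2a, Mki67 and Pbk fell at an adjusted p under 0.05 (limma, Benjamini-Hochberg over all genes), and no listed gene rose. Over all genes 0.225% were called lower and 0.269% higher. At an unadjusted p under 0.05, 24 of the 44 genes (54.5%) were lower and 0 higher, where 6.2% of all genes were lower and 6.22% higher. In 22 of the 44 every ERRa KO value lay below every WT value, against 9.56% of all genes, and in 0 was the order the opposite, against 9.11%. Leaving out ERRa KO replicate 3 gave a median of -0.25, with 40 genes lower, against 46.1% of all genes. At an unadjusted p under 0.05, 21 were then lower and 0 higher, against 5.47% and 6.9% of all genes, and 0 of the list passed the adjusted threshold, against 0.044% of all genes called lower.

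**Figure D1:**
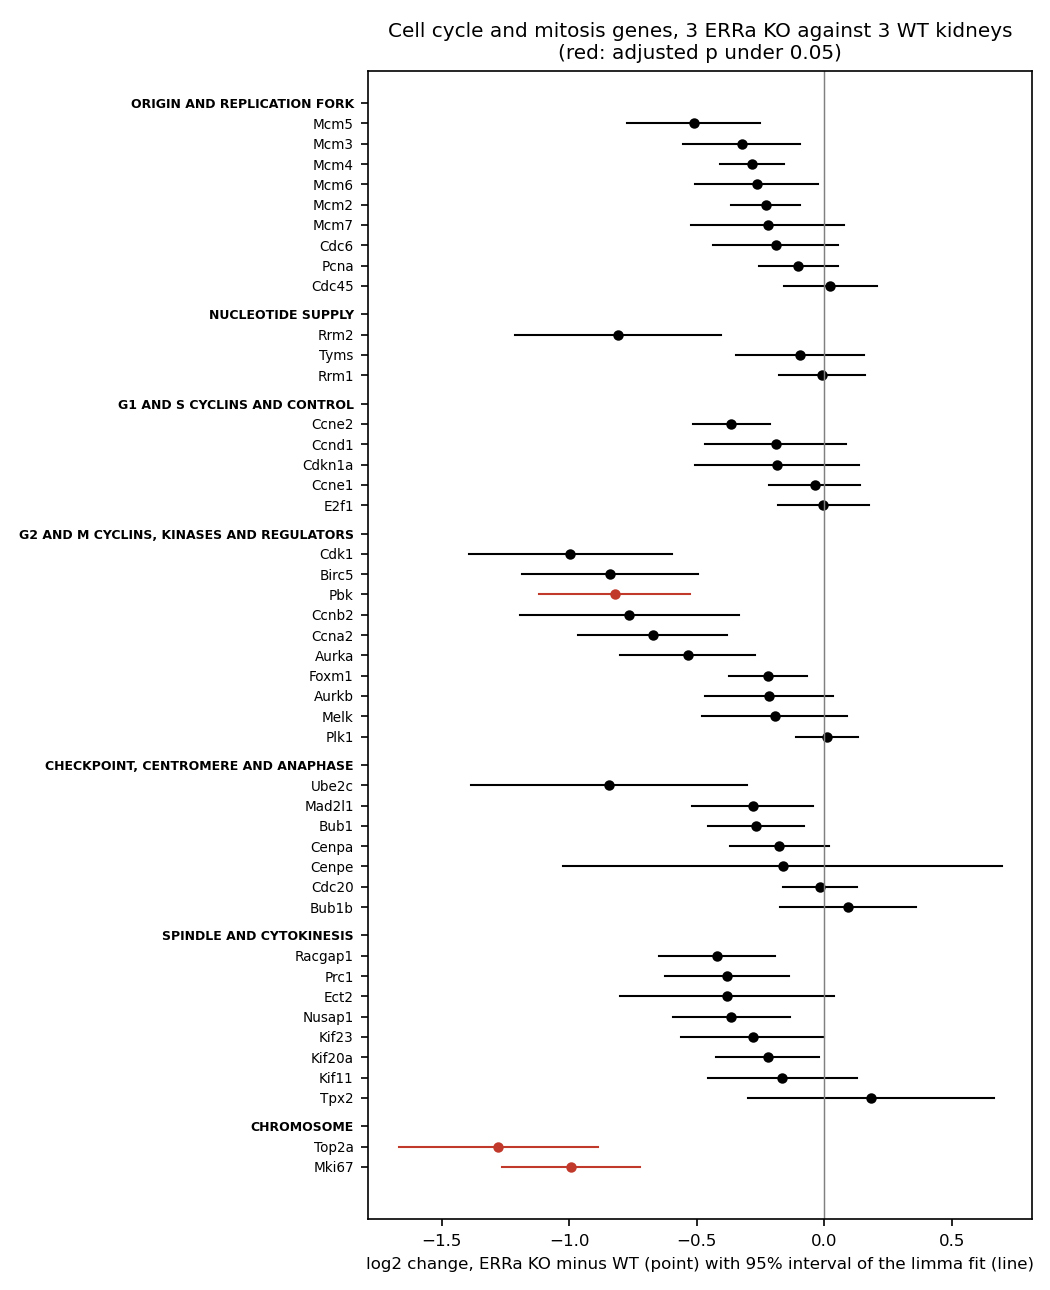
Log2 change (ERRa KO minus WT, x axis) of each of the 44 measured genes, grouped by role down the page, with the 95% interval of the limma fit. Top2a, Mki67 and Pbk, in red, passed the adjusted threshold, and 40 of 44 points lie left of 0.

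The 3 genes that fell mark cells in S phase, G2 and mitosis. Top2a (chromosome 11), the topoisomerase that untangles sister chromatids, read 4.14, 4.46 and 4.57 in ERRa KO kidneys, against 5.43, 5.55 and 6.02 in WT kidneys. That is a fall of 2.43-fold (-1.28, SE 0.17, 95% interval -1.67 to -0.89, adjusted p = 0.033). Mki67 (chromosome 7), which encodes the Ki-67 protein that coats mitotic chromosomes and is the standard histological marker of proliferation, read 4.91, 5.06 and 4.95 in ERRa KO kidneys, against 5.98, 5.73 and 6.20 in WT kidneys (-0.99, SE 0.12, adjusted p = 0.0258). Pbk (chromosome 14), a mitotic kinase gene, read 5.11, 4.99 and 4.84 in ERRa KO kidneys, against 5.68, 5.65 and 6.08 in WT kidneys (-0.82, SE 0.13, adjusted p = 0.0494). In none of the 3 did the genotypes overlap, and in all of them WT replicate 3 was the highest array. Among all 18193 genes the 20 most negative differences held 7 of the list: Top2a, Cdk1, Mki67, Ube2c, Birc5, Pbk and Rrm2.

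The calls rest on few arrays. When 1 array was left out, Mki67 kept its call without WT replicate 2 and without WT replicate 3, with adjusted p between 0.0239 and 0.0852 over the 6 fits. It lost its call without WT replicate 1 and without each ERRa KO array. Top2a (0.0563 to 0.118) and Pbk (0.0901 to 0.158) lost theirs in all 6. Of all genes, 0.0385%, 0.0165% and 0.044% were called lower without ERRa KO replicates 1, 2 and 3, and 0.0165%, 0.033% and 0.0385% without WT replicates 1, 2 and 3.

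**Figure D2:**
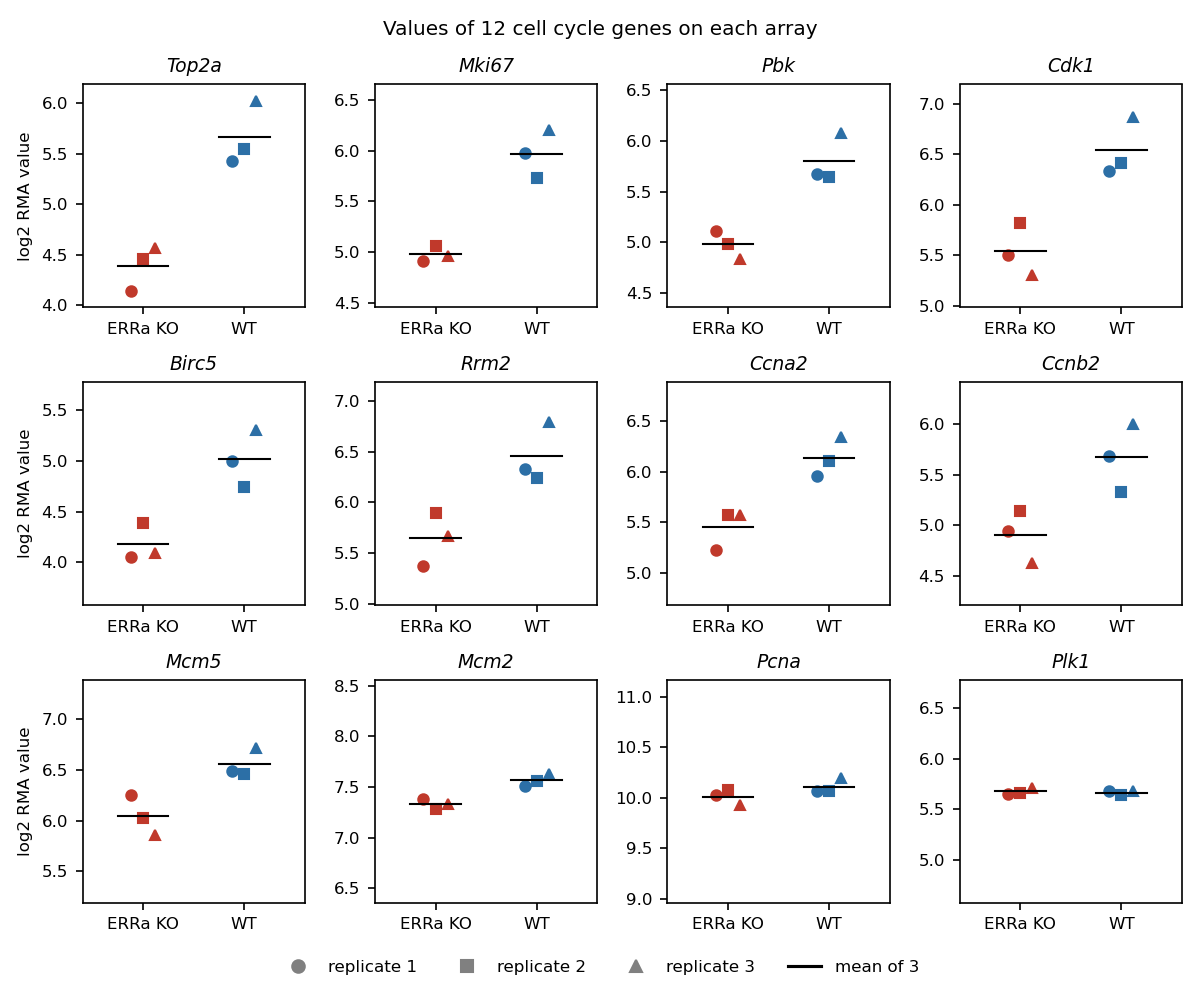
Log2 RMA values (y axis, each panel spanning the same range of log2 units) of 12 genes on the 3 ERRa KO arrays, left, and the 3 WT arrays, right, with the group mean as a line. Top2a, Mki67, Pbk, Cdk1, Birc5, Rrm2, Ccna2, Ccnb2, Mcm5 and Mcm2 do not overlap between genotypes, whereas Pcna and Plk1 do.

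The G2 and M group, to which Pbk belongs, had the most negative median among the role groups of 3 or more genes. Over its 10 measured cyclins, kinases and regulators of G2 and M the median was -0.60, and in 7 of the 10 every ERRa KO value lay below every WT value, against 9.56% of all genes. Cdk1, the mitotic cyclin-dependent kinase, read 5.50, 5.82 and 5.31 in ERRa KO kidneys, against 6.33, 6.41 and 6.87 in WT kidneys. Its difference of -0.996 (SE 0.17, 95% interval -1.39 to -0.60) had an adjusted p of 0.0679, the smallest among the 41 genes that did not pass. Its cyclin partners were low in the same kidneys. Ccna2, the cyclin of S phase and G2, read 5.23, 5.57 and 5.58 in ERRa KO kidneys, against 5.96, 6.10 and 6.34 in WT kidneys (-0.67, adjusted p = 0.0832). Ccnb2, a mitotic cyclin, read 4.95, 5.14 and 4.62 in ERRa KO kidneys, against 5.68, 5.33 and 6.00 in WT kidneys (-0.77, adjusted p = 0.149). Birc5, which encodes survivin of the chromosomal passenger complex, read 4.05, 4.38 and 4.09 in ERRa KO kidneys, against 4.999, 4.74 and 5.30 in WT kidneys (-0.84, adjusted p = 0.0718). The spindle kinase gene Aurka read -0.54 (adjusted p = 0.111) and Foxm1, the transcription factor of G2 and M genes, -0.22 (adjusted p = 0.226), both without overlap. The Foxm1 value rested on its brightest probe set, since the others differed by 0.04, -0.03 and 0.02. A dimmer Aurka probe set differed by 0.02. Aurkb, the kinase of the passenger complex, at -0.22, and Melk, another kinase gene of dividing cells, at -0.19, overlapped between genotypes.

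Plk1, the polo-like kinase of mitotic entry, was the exception in this group. It read 5.65, 5.66 and 5.71 in ERRa KO kidneys, against 5.68, 5.64 and 5.68 in WT kidneys, a difference of 0.01 with a 95% interval of -0.11 to 0.13. It is read by 1 probe set, so no other value of the gene can be set beside it.

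The promoters of some of these genes are printed because most of the list read lower together and CHR and CCAAT boxes are the elements through which G2 and M genes are known to be controlled. The windows run from 250 bases before to 50 bases after the annotated start (RefSeq, GRCm38.p6, written on the gene's own strand), and capitals mark every match to a searched motif. Top2a and Mki67 are the called genes with an entry, Cdk1 has the next lowest adjusted p, and Mcm5 stands for the replication genes described below.
Top2a promoter, chr11:99024140-99024439, minus strand: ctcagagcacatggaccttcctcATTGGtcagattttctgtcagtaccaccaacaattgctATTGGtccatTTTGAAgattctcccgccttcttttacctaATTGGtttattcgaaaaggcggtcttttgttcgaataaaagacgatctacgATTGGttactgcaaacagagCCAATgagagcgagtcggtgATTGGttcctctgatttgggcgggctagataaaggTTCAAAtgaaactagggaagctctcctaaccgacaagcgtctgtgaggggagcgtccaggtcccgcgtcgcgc
Mki67 promoter, chr7:135716330-135716629, minus strand: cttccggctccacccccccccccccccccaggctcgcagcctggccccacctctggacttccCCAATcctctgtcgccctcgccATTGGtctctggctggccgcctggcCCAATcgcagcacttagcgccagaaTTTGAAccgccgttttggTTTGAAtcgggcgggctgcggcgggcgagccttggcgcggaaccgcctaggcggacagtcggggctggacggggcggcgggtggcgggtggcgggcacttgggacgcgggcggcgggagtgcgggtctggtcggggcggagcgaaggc
Cdk1 promoter, chr10:69352863-69353162, minus strand: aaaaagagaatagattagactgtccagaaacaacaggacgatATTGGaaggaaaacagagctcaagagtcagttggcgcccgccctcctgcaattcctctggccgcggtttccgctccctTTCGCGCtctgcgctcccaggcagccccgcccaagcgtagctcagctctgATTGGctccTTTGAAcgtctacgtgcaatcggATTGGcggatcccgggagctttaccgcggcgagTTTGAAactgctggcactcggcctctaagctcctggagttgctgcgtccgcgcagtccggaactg
Mcm5 promoter, chr8:75109259-75109558, plus strand: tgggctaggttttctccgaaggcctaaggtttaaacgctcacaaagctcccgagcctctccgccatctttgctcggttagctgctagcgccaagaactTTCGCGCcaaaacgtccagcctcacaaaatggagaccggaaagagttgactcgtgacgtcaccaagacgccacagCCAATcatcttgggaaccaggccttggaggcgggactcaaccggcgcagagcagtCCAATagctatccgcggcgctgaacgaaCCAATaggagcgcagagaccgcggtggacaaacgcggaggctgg

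The motifs searched on both strands were CHR (TTTGAA), the CCAAT box (CCAAT), the E2F site in its variants TTCCCGC and TTCGCGC, and the ERR element (TNAAGGTCA). Of the 44 genes 35 had a promoter entry. Pbk, Ccna2, Ccne2, Ccnd1, Aurkb, Mcm4, Kif20a, Tpx2 and Foxm1 did not. A CHR was found in 17 of 35 (48.6%), against 20.2% of 27025 genes with an entry, and a CCAAT box in 26 of 35 (74.3%), against 41.1%. All 17 genes with a CHR also held a CCAAT box, a combination found in 8.97% of all genes. The Top2a window held 2 CHR and 6 CCAAT boxes, that of Mki67 2 CHR and 3 CCAAT boxes, and that of Cdk1 2 CHR, 3 CCAAT boxes and 1 E2F site. The Mcm5 window held 3 CCAAT boxes and 1 E2F site and no CHR. An E2F site of either variant was found in 7 of 35, against 6.86% of all genes, and in 4 of the 5 Mcm promoters with an entry. Letters matching the ERR element were found in 0 of the 35 windows, against 1.43% of all genes. Among all matches in the listed genes, 1 pair of hits of different motifs overlapped. The median difference was -0.38 for the 17 genes with a CHR and -0.21 for the 18 without, ranges that overlap widely (-1.28 to 0.09 and -0.84 to -0.00). A match to letters is a description of the window and does not show binding.

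Genes of origin licensing and the replication fork gave smaller differences, and none passed the adjusted threshold. Of the 9 measured, 8 read lower, against 47.4% of all genes, with a median of -0.23, and 5 lay below WT without overlap, against 9.56% of all genes. The MCM helicase subunits gave 6 negative differences of 6, from -0.51 to -0.22. Mcm5 read 6.25, 6.02 and 5.86 in ERRa KO kidneys, against 6.495, 6.46 and 6.72 in WT kidneys (-0.51, SE 0.11, adjusted p = 0.119). Mcm4 had the tightest replicates of the subunits, at 6.31, 6.30 and 6.37 in ERRa KO kidneys, against 6.64, 6.57 and 6.63 in WT kidneys (-0.28, SE 0.05, adjusted p = 0.0871). Mcm2 read 7.38, 7.29 and 7.34 in ERRa KO kidneys, against 7.51, 7.56 and 7.62 in WT kidneys (-0.23, adjusted p = 0.17), and Mcm3 and Mcm6 were also without overlap (-0.32 and -0.27). Mcm7 (-0.22) overlapped.

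The other fork genes overlapped between genotypes. Pcna, the sliding clamp of the DNA polymerases, read 10.03, 10.07 and 9.93 in ERRa KO kidneys, against 10.07, 10.07 and 10.20 in WT kidneys, a difference of -0.10 with an interval of -0.26 to 0.05. The helicase loader gene Cdc6 read -0.19 (adjusted p = 0.522), and Cdc45, of the active helicase, 0.02 (interval -0.16 to 0.21). In nucleotide supply, Rrm2, the ribonucleotide reductase subunit made in S phase, read 5.37, 5.90 and 5.67 in ERRa KO kidneys, against 6.33, 6.24 and 6.80 in WT kidneys (-0.81, SE 0.17, adjusted p = 0.112). The large subunit gene Rrm1 read -0.01 (interval -0.18 to 0.16) on the probe set used. A second Rrm1 probe set read 6.56, 6.43 and 6.32 in ERRa KO kidneys, against 6.65, 6.59 and 6.91 in WT kidneys, without overlap (-0.28, adjusted p = 0.379 over all probe sets). For the thymidylate synthase gene Tyms the difference was -0.10 (interval -0.35 to 0.15) on the probe set used. Its other probe sets, also at low signal, differed by 0.12, -0.13 and 0.09. Whether Rrm1 and Rrm2 differ was not tested.

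Of the 5 genes of G1 and S control, none passed the adjusted threshold and 1 lay below WT without overlap, where 9.56% of all genes did. Ccne2, a cyclin of the G1 to S transition, read 3.27, 3.23 and 3.39 in ERRa KO kidneys, against 3.72, 3.61 and 3.66 in WT kidneys (-0.36, SE 0.07, adjusted p = 0.0727), without overlap but at a low signal. Its relative Ccne1 read -0.04 (interval -0.22 to 0.14), and E2f1, the activating E2F factor, read 5.77, 5.69 and 5.65 in ERRa KO kidneys, against 5.81, 5.74 and 5.57 in WT kidneys (-0.00, interval -0.18 to 0.17). Ccnd1, the cyclin D1 gene, which resting tubule cells also express, read 10.88, 10.63 and 10.52 in ERRa KO kidneys, against 10.73, 10.81 and 11.07 in WT kidneys (-0.19, adjusted p = 0.571). Cdkn1a, which encodes the CDK inhibitor p21 and is induced by p53, read 6.32, 6.62 and 6.505 in ERRa KO kidneys, against 6.47, 6.56 and 6.97 in WT kidneys (-0.19, adjusted p = 0.637). Both Ccnd1 and Cdkn1a overlapped between genotypes.

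In the checkpoint, centromere and anaphase group 6 of 7 genes read lower, with a median of -0.18. Ube2c, the ubiquitin-conjugating enzyme of the anaphase-promoting complex, read 4.64, 5.37 and 5.07 in ERRa KO kidneys, against 5.62, 5.65 and 6.33 in WT kidneys (-0.84, SE 0.23, adjusted p = 0.199). It did not overlap between genotypes, with SDs of 0.37 in ERRa KO and 0.40 in WT kidneys (n = 3 each). The checkpoint kinase gene Bub1 read -0.27 (adjusted p = 0.234) without overlap but at a low signal, and its other probe set differed by 0.11. Mad2l1 read -0.28 (adjusted p = 0.318) with overlap. Bub1b, which encodes BUBR1, read 0.09 (interval -0.17 to 0.36) on the probe set used, and -0.09 and -0.06 on its others. Cenpe, a kinetochore motor gene, varied widely among replicates. It read 6.30, 5.25 and 4.71 in ERRa KO kidneys, against 5.61, 5.24 and 5.90 in WT kidneys (-0.16, interval -1.02 to 0.70). Leaving out 1 array moved the Cenpe difference between -0.60 and 0.19.

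Of the 8 spindle and cytokinesis genes 7 read lower, with a median of -0.32. Racgap1, of the centralspindlin complex that places the cleavage furrow, read 4.23, 4.30 and 4.46 in ERRa KO kidneys, against 4.56, 4.82 and 4.86 in WT kidneys (-0.42, SE 0.10, adjusted p = 0.138). Prc1, which bundles midzone microtubules, and Nusap1, a spindle-associated protein gene, were also without overlap (-0.38 and -0.37). The kinesin genes Kif23, the partner of Racgap1, at -0.28, Kif20a at -0.22 and Kif11 at -0.16 overlapped, as did the furrow exchange factor gene Ect2 at -0.38. Tpx2, the activator of Aurora A on the spindle, had the highest value of the list, 0.18 (interval -0.30 to 0.66).

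The reading of some genes turned on which probe set stood for them. The probe set with the highest mean signal was used for each gene, and the 44 genes have 98 probe sets, of which 80 read lower. At an unadjusted p under 0.05, 40 of the 98 were lower and 0 higher, against 5.77% and 5.1% of all 45037 probe sets, and 2 passed the adjusted threshold over all probe sets, against 0.0466% called lower and 0.0644% called higher. Of the 30 genes with several probe sets 16 had the same sign in all. Cdc20, the activator of the anaphase-promoting complex, read 5.82, 5.87 and 5.86 in ERRa KO kidneys, against 5.96, 5.83 and 5.81 in WT kidneys on the probe set used. Its 2 other probe sets differed by -0.76 and -0.93 (limma over all probe sets, adjusted p = 0.141 and 0.173). The first of these read 5.05, 5.64 and 5.38 in ERRa KO kidneys, against 5.94, 6.09 and 6.33 in WT kidneys, without overlap.

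The probe sets of Tpx2 also disagreed. Its 2 brighter probe sets differed by 0.18 and 0.03, and its 2 dimmer ones by -0.34 and -0.27 (adjusted p = 0.127 and 0.266). The third read 3.79, 3.71 and 3.77 in ERRa KO kidneys, against 4.04, 4.07 and 4.19 in WT kidneys, without overlap. Cenpa, the centromeric histone H3 variant, read -0.18 on the probe set used and -0.43 (adjusted p = 0.135) on another. For Rrm2 all 3 probe sets were lower (-0.81, -0.98 and -0.48), and for Ccna2 and Prc1 both were. The fall of Top2a rested on its brightest probe set, since the others differed by -0.11 and 0.04. With the mean of its 3 probe sets Top2a differed by -0.45 (adjusted p = 0.0542), which ends its call. The values of Kif23 and Cdkn1a also came from their brightest probe sets. The dimmer ones differed by -0.01 and 0.005 for Kif23 and by 0.01 for Cdkn1a. Mki67 and Pbk have 1 probe set each.

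**Figure D3:**
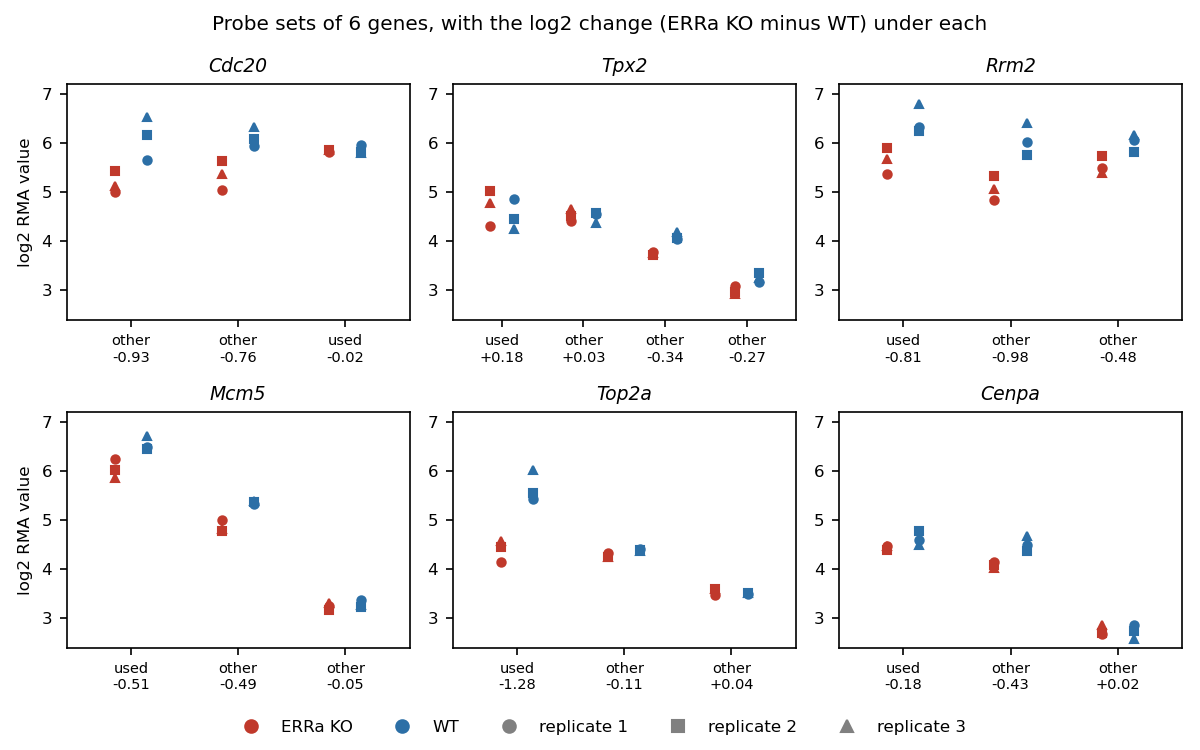
Log2 RMA values (y axis) of every probe set of 6 genes, ordered by WT signal, with ERRa KO arrays left of WT arrays and the log2 change under each. The probe set marked as used is the brightest by the mean of all 6 arrays; for Cdc20 it shows -0.02 where the others show -0.93 and -0.76.

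For the listed genes WT replicate 3 stood out among the arrays. Among the 3 WT arrays, replicate 3 was the highest for 32 of the 44 genes, and it was the highest of all 6 arrays for 29, against 17.9% of all genes. Among the ERRa KO arrays the highest value was spread over the replicates, in 11 genes at replicate 1, 18 at replicate 2 and 15 at replicate 3. The median of the 44 genes' differences from the WT mean was -0.29, -0.26 and -0.29 in the 3 ERRa KO arrays, against -0.02, -0.10 and 0.14 in the 3 WT arrays. Without WT replicate 3 the median change was -0.20, with 40 of 44 genes lower, against 49.2% of all genes, and 21 lower at an unadjusted p under 0.05, against 4.57%. The SD among replicates was wider than for genes at large, with a median of 0.14 in ERRa KO and 0.16 in WT kidneys over the 44 genes, against 0.09 and 0.08 over all genes. By signal, 36 of the 44 genes lay at or below the median gene of the arrays, 6.45, with a median difference of -0.28 and all 3 calls, and the 8 above it had a median of -0.21.

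Other genes of the same machinery, outside the 45, gave a smaller median. Both lists were chosen with earlier results of these data known, and whether they differ was not tested. Of 117 further replication and mitosis genes 94 read lower and 23 higher, against 47.4% and 52.6% of all genes, with a median of -0.11. None passed the adjusted threshold. At an unadjusted p under 0.05 (limma), 31 were lower and 3 higher, against 6.2% and 6.22% of all genes. Without ERRa KO replicate 3, 88 of the 117 read lower, against 46.1% of all genes, and 24 were lower at that p, against 5.47%. Condensins and other chromosome genes had a median of -0.18, with 13 of 15 lower. The condensin subunit genes Ncapg2 and Smc4 read -0.52 (adjusted p = 0.0871) and -0.24 (adjusted p = 0.12). Spindle genes had 22 of 27 lower, among them Aspm (-0.49, adjusted p = 0.0841) and Ckap2 (-0.36, adjusted p = 0.106). The passenger complex gene Cdca8 read 5.02, 5.38 and 5.12 in ERRa KO kidneys, against 5.56, 5.67 and 5.89 in WT kidneys (-0.53, adjusted p = 0.117), and the mitotic entry gene Cdca3 -0.63 (adjusted p = 0.149).

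Mcm10, an initiation factor that joins the helicase at origins, was higher where most of its list was lower. It read 6.88, 6.95 and 6.94 in ERRa KO kidneys, against 6.53, 6.596 and 6.395 in WT kidneys (0.41, SE 0.07, adjusted p = 0.0612), the highest difference among the 37 further replication genes. Of these 30 read lower, against 47.4% of all genes. At an unadjusted p under 0.05, 8 were lower and 2 higher, against 6.2% and 6.22% of all genes. Without ERRa KO replicate 3, 25 of the 37 read lower, against 46.1% of all genes, and 2 were lower at that p, near the 5.47% of all genes. Among factors that control these genes, 19 E2F, retinoblastoma and DREAM genes had a median of -0.04, and 0 passed the adjusted threshold. Single genes lay further from 0. In 3 every ERRa KO value lay below every WT value, against 9.56% of all genes. In 1 the order was the opposite, against 9.11%. The pocket protein gene Rbl1, which is itself raised in S phase, read -0.40 (adjusted p = 0.268), and the DREAM gene Lin9 -0.23 (adjusted p = 0.286). Foxm1, given above, is not in this list. Of 8 other CDK inhibitors and antiproliferative genes 5 read higher. Cdkn1c, the imprinted gene of the inhibitor p57, read 8.52, 8.47 and 8.25 in ERRa KO kidneys, against 8.03, 8.001 and 8.10 in WT kidneys (0.37, SE 0.08, adjusted p = 0.116). Of 14 measured p53 targets and p53 pathway genes 11 read lower and 0 passed, with a median of -0.06, but without ERRa KO replicate 3 the count was 7 of 14, with a median of -0.03. The stress-induced kinase gene Plk3, on that list, read 0.49 (adjusted p = 0.112). In DNA repair and replication stress 9 of 12 genes read lower, with the checkpoint kinase gene Chek1 at -0.39 (adjusted p = 0.211).

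**Figure D4:**
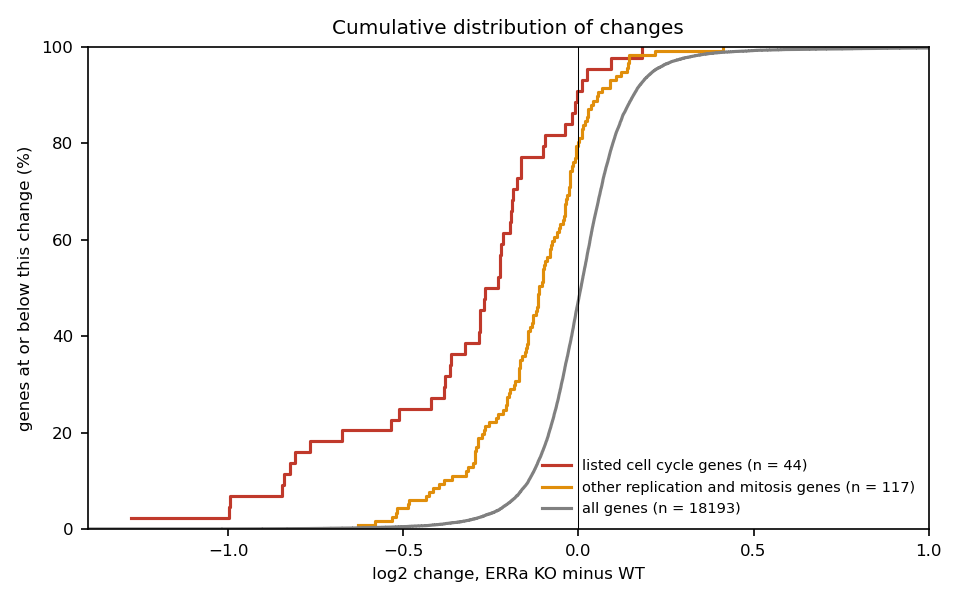
Share of genes (y axis, in percent) at or below each log2 change (ERRa KO minus WT, x axis) for the 44 listed genes, 117 other replication and mitosis genes and all 18193 genes. The medians are -0.25, -0.11 and 0.01.

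Fibroblast and matrix transcripts were also lower in ERRa KO kidneys, but the lists were not ordered alike among the ERRa KO arrays. In ERRa KO replicates 1, 2 and 3 the cell cycle genes summed to 5383, 5110 and 4736. Without Ccnd1 and Cdkn1a they summed to 3417, 3432 and 3175. The collagen and matrix list summed to 4496, 4590 and 4810, and the fibroblast list to 1592, 1816 and 1777. The fibroblast list and the collagen and matrix list share 3 genes, Col1a1, Col1a2 and Col3a1, so they are not separate observations. All 10 fibroblast markers read lower, and the 2 past the threshold, Col1a2 and Col3a1, are shared collagens, where 0.225% of all genes were called lower. Without ERRa KO replicate 3, 9 of the 10 read lower and 2 passed the threshold, where 0.044% of all genes were called lower. The fibroblast markers' summed level, taken out of log2, was 59.9% to 68.3% of the WT mean in ERRa KO kidneys and 92.7% to 112% in WT kidneys, with WT replicate 3 the highest for 7 of 10. Of 12 collagen and matrix genes 6 fell past the threshold, against 0.225% of all genes. Among them was the fibrillar collagen gene Col3a1, which read 8.41, 8.70 and 8.79 in ERRa KO kidneys, against 9.78, 9.66 and 10.03 in WT kidneys (-1.19, adjusted p = 0.0156). Without ERRa KO replicate 3, 3 of the 12 passed the threshold, against 0.044% of all genes called lower, and 12 of 12 read lower, against 46.1%. The summed level of the 44 cell cycle genes was 79.3% to 90.2% of the WT mean in ERRa KO kidneys and 94.1% to 111% in WT kidneys. That sum weighs most the brightest genes, such as Ccnd1 and Pcna. For the G2 and M group it was 66.2% to 71.7% in ERRa KO and 91.5% to 115% in WT kidneys. For the G1 and S group it was 79.9% to 99.0% in ERRa KO and 90.8% to 114% in WT kidneys. Whether the fibroblast markers account for a share of the cell cycle differences was not tested.

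Markers of the immune cells that can divide in a kidney did not share one direction. Of 8 T cell markers 5 read higher and 0 had an unadjusted p under 0.05, and their summed level was 97.5% to 110% of the WT mean in ERRa KO kidneys and 95.6% to 104% in WT kidneys. Of 6 B cell markers 5 read higher, with sums of 100.2% to 111% in ERRa KO and 96.8% to 104% in WT kidneys. Macrophage markers were mostly low, with 8 of 9 negative, a median of -0.22 and sums of 90.8% to 95.6% in ERRa KO kidneys and 95.9% to 107% in WT kidneys. At an unadjusted p under 0.05 (limma), 5 of the 9 were lower and 1 higher, against 6.2% and 6.22% of all genes. Without overlap between genotypes 5 lay lower and 1 higher, against 9.56% and 9.11% of all genes. WT replicate 3 was the highest of all 6 arrays for 7 of the 9, against 17.9% of all genes. The complement gene C1qc read -0.32 (adjusted p = 0.12) and Cd14, a lipopolysaccharide receptor gene, -0.44 (adjusted p = 0.168). Of 8 plasma cell markers 4 read higher, and their sums overlapped. Jchain, the joining chain gene of secreted immunoglobulins, read 7.71, 8.26 and 5.96 in ERRa KO kidneys, against 5.31, 4.80 and 5.12 in WT kidneys (2.24, SE 0.52, adjusted p = 0.135), without overlap. All 5 measured adipocyte markers read higher, with a median of 0.22 and 0 past the threshold, and their sums of 113% to 152% in ERRa KO kidneys lay above those of 82.1% to 109% in WT kidneys. Without ERRa KO replicate 3, 1 plasma cell marker passed the threshold, Jchain, and the adipocyte median was 0.29. The part of macrophages, plasma cells or adipocytes in the cell cycle differences was not tested. Endothelial markers overlapped in sum, at 93.0% to 101% in ERRa KO and 95.7% to 107% in WT kidneys. The 13 kidney tubule and podocyte markers had a median level of 12.42 and a median change of -0.07, with 0 past the threshold.

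**Figure D5:**
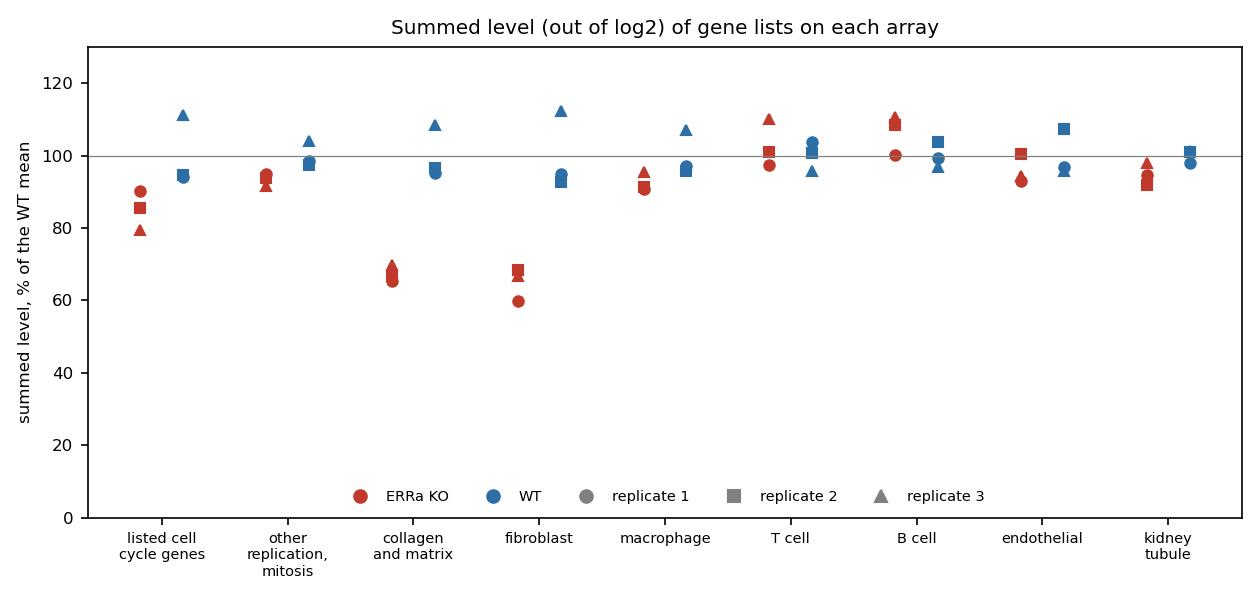
Summed level of each gene list on each array, as a percent of the mean of the 3 WT arrays (y axis), with ERRa KO arrays left of WT arrays. Of the lists shown, the fibroblast and the collagen and matrix lists, which share 3 genes, lie furthest below 100% in ERRa KO kidneys. T and B cell markers do not separate the genotypes, whereas the macrophage sums lie lower in ERRa KO kidneys without overlap.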

How the data were processed

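Whole-kidney RNA samples of male mice, 3 ERRa KO and 3 WT, were hybridised to 1 array each. The submitters' processing notes name RMA, which corrects background, quantile normalizes and summarises probe sets, as the authors' source of the deposited log2 values, and give no settings. The authors' deposited table adds a log2 fold change and an unadjusted p-value per probe set, whose test the file header does not name; that p-value matched an equal-variance test of the 6 values to within 2.8e-05. Depth has no meaning for arrays, and 3 arrays per genotype limit the precision.

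Of 45101 probe sets 64 controls were left out. A platform annotation named 1 gene for 34945 probe sets, several for 932 and none for 9160, and the last 2 kinds were not used. Symbols were updated by gene identifier from the GRCm38.p6 gene table (34741 found). The probe set with the highest mean stood for its gene, giving 18193 genes, with no filter on low values. All 6 arrays entered a moderated fit (limma 3.58.1, R 4.3.3) with a term for genotype alone, with Benjamini-Hochberg adjustment and a threshold of 0.05. The members and lists were chosen with earlier results of these data known. Named are all 44 measured members and Esrra. From some of the other lists, 1 or 2 of the 2 genes with the smallest p are named, besides the collagen genes that 2 lists share. Promoter letters come from RefSeq windows. Replicates of equal number did not deviate together (correlations of -0.04, -0.00 and -0.08), and no pair of arrays shared more than 131 of 45101 values.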

Additional observations from a re-analysis of the deposited data

How the results depend on the processing

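The count of 3 called cell cycle genes was 7 with a variance trend (adding Cdk1, Ccna2, Rrm2 and Birc5), 1 among genes above the median level (Mcm4), 1 with the replicate block (Top2a) and 0 with the plain equal-variance test, and 0 to 1 when 1 array was left out. Centring the arrays, quantile normalization, array weights, averaged probe sets and the fit over probe sets gave 2 to 4. Called genes in all, 90 in the main setting, were 220 above the median level, 18 with the replicate block, 0 by the plain test (5.94% lower and 5.28% higher at an unadjusted p under 0.05), 309 with the trend, 50 in the fit over probe sets and 10 to 39 without 1 array. The block takes up degrees of freedom, and same-numbered samples share only a number. The median change stayed between -0.32 and -0.20 in every setting run. Esrra stayed called except by the plain test (-2.93, adjusted p = 0.0584). Signs turned for the genes named next. With averaged probe sets Ccne1 was 0.012, Bub1b -0.021, Tpx2 -0.10 and E2f1 0.026. With quantile normalization Plk1 was -0.00067 and Cdc45 -0.0097, and with array weights Cdc45 was -0.0051 and Rrm1 0.028. Without 1 array Ccne1 ranged from -0.104 to 0.024, Bub1b from -0.027 to 0.181, Plk1 from -0.0083 to 0.023, Cdc20 from -0.050 to 0.030, Cdc45 from -0.047 to 0.061, Rrm1 from -0.072 to 0.047, Tyms from -0.167 to 0.0014, Cenpe from -0.604 to 0.191 and E2f1 from -0.074 to 0.048. Beyond these constructions, the cause was not tested.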
